A study of Mus musculus with 18 samples.

Results

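The integrated stress response and the unfolded protein response were followed in mouse embryonic stem cells through 10 genes: Atf4, Atf5, Ddit3, Trib3, Chac1, Asns, Hspa5, Xbp1, Sesn2 and Ddit4. All 21 probe sets annotated to these symbols were taken, of 45037 probe sets that were not controls, and the 10 genes were 10 of 18193 with a probe set of their own. The study compared 6 groups of 3 arrays. Cells of the mouse line CGR8 received by lipofection a plasmid for Foxd3, a plasmid for CA-NFATc3, both plasmids, or the empty vector. Foxd3 is a forkhead transcription factor of pluripotent cells and of the neural crest, and NFATc3 is a transcription factor switched on by calcineurin; the labels do not spell out CA. Conditional knockout cells of genotype Foxd3fl/fl:Cre-ERT, whose Cre recombinase is switched on by the drug, were given tamoxifen for 2 days or DMSO (0 days). The labels name the same cell line for all 6 groups, and both knockout groups carry the floxed alleles and the Cre. Tamoxifen was given to no cells without the floxed alleles, so that the drug and the deletion cannot be told apart. The replicates are labelled as biological, without a statement that they were separate cultures, so the p-values measure the spread between these arrays.

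In the integrated stress response, kinases that sense lack of amino acids, unfolded protein in the endoplasmic reticulum (ER), haem shortage or viral RNA phosphorylate the translation factor eIF2, which slows most protein synthesis and lets the mRNA of Atf4 be translated. ATF4 then switches on genes for amino acid supply and, with CHOP (the product of Ddit3), genes that limit or end the response. In the unfolded protein response, the ER sensor IRE1 splices Xbp1 mRNA and the sensor ATF6 is cleaved, and both products raise ER chaperones such as BiP, the product of Hspa5. The signals here are amounts of mRNA; translation of Atf4, splicing of Xbp1 and phosphorylation of eIF2 were not analysed here.

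The promoters of 5 of the genes are shown because they hold letter matches to elements through which such pathways are known to act. A further reason is that the mRNAs of these genes did not move together in the comparisons that follow. Sequences are from RefSeq on assembly GRCm38.p6, each 5′ to 3′ on the strand of the gene, 280 bases that begin 250 bases before the annotated start, with the element in capitals. The ATF4 element core TGATGNAA was searched on both strands of the whole 300-base windows and stood in those of 3 of the 10 genes, Asns, Trib3 and Chac1, against 3.97% of 32851 windows of all genes. In Trib3 and Chac1 it lies on the other strand and reads reversed, and in Trib3 it lies after the annotated start.
Asns (chr6:7693180-7693459, minus strand): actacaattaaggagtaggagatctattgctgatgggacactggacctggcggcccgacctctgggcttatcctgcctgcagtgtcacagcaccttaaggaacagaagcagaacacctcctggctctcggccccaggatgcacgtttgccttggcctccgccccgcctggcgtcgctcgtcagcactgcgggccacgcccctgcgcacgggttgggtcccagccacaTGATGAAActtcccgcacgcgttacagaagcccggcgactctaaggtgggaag
Trib3 (chr2:152344031-152344310, minus strand): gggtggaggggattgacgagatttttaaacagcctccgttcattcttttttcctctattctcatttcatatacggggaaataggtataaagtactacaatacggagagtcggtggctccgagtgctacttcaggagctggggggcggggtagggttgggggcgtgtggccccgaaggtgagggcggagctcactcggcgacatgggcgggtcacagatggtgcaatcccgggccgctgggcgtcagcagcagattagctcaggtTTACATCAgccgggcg
Chac1 (chr2:119350992-119351271, plus strand): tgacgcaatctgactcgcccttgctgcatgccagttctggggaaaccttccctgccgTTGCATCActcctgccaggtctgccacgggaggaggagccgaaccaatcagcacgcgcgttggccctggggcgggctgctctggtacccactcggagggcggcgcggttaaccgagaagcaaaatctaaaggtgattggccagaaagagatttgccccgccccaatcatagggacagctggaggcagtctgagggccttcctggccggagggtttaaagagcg
The ER stress response element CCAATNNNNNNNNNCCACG was found in the window of Hspa5 alone among the 10 genes, and in 0.119% of all windows.
Hspa5 (chr2:34771840-34772119, plus strand): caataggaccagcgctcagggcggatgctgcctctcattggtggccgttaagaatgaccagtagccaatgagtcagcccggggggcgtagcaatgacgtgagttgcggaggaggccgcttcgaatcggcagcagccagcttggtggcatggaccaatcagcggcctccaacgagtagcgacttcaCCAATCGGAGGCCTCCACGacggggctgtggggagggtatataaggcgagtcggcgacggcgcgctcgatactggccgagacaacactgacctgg
Ddit4 encodes REDD1, an inhibitor of the growth kinase mTORC1, and is known as a target of the hypoxia-inducible factor (HIF) as well as of ATF4. Its window held the HIF core ACGTG, which stood in 19.6% of all windows and also in those of Ddit3, Asns and Hspa5. No match of one element overlapped a match of another.
Ddit4 (chr10:59951741-59952020, minus strand): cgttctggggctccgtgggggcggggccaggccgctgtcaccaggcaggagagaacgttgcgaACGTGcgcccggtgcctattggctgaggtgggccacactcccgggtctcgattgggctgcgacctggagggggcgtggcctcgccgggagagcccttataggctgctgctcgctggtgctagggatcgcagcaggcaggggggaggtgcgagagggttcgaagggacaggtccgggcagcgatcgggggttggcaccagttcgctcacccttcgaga
A match is a description of the letters only; binding was not analysed here.

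Array medians were 55.2 to 67.1 in transfected cells and 73.0 to 80.7 in knockout cells. Across probe sets, the 3 arrays of a group had pairwise r of 0.981 to 0.987. All 6 markers of pluripotent cells were above the filter in every group, and their summed signal was 64489 to 68587 with tamoxifen against 69536 to 71609 with DMSO, and 70568 to 81007 in the 3 plasmid groups against 78827 to 88524 with the vector. Nanog, one of them, averaged 6017 in the DMSO-treated knockout cells against 14756 in vector cells. Esrrb (1496 against 4261, by its brightest probe set), Sox2 (12586 against 16822) and Pou5f1 (8707 against 10417) were also lower there. Zfp42 was nearly level, at 11025 against 11348, and Dppa5a went the other way, at 30853 against 27034. The probe set of Foxd3 itself averaged 237 in the arrays labelled Foxd3 and 234 with both plasmids. It averaged 451 with CA-NFATc3 and 443 with the vector, an order opposite to the labels, and 31.4 with tamoxifen against 219 with DMSO. Plasmid sequence and probe position are not known here, so whether this probe set reads plasmid transcript was not tested. The brighter Nfatc3 probe set averaged 1732 with CA-NFATc3, 1817 with both plasmids and 1723 with Foxd3, against 1581 with the vector. The dimmer Nfatc3 probe set averaged 325, 297 and 245 in that order, against 253 with the vector. Groups are named by their labels throughout. Of 8 fibroblast markers, all 8 were above the filter with tamoxifen and 7 with DMSO (Lum was below), and their summed signal was 15409 to 17620 with tamoxifen, against 2700 to 3132 with DMSO. That sum was 559 to 622 with Foxd3, 631 to 759 with CA-NFATc3 and 1026 to 1143 with both plasmids, against 424 to 528 with the vector, with no overlap between any of these groups. Col1a1, Dcn, Lum and Postn were below the filter in each of the 4, with 3, 3, 4 and 2 of the 8 markers above it in that order. The part of these markers in the plasmid results was not tested.

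Levels are given as the deposited signals, a linear intensity with no unit, and differences as log2 differences of the signal plus 32, with their standard error (SE) from limma. A probe set was tested if its signal reached 65.8, the median of all deposited values, in at least 3 arrays of the fit, and called at an adjusted p under 0.05 after Benjamini-Hochberg adjustment over all probe sets tested. Of the 21 probe sets, 19 were tested in transfected cells and 20 in knockout cells. The Atf4 probe set 1439258_at had signals of 1.69 to 25.0 in all 18 arrays and was tested nowhere, and the Ddit3 probe set 1443897_at was below the filter in transfected cells. Probe sets of different genes are not compared in level, since probes differ in brightness. Names ending in _s_at or _x_at mark probe sets whose probes may also match other transcripts.

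**Figure D1:**
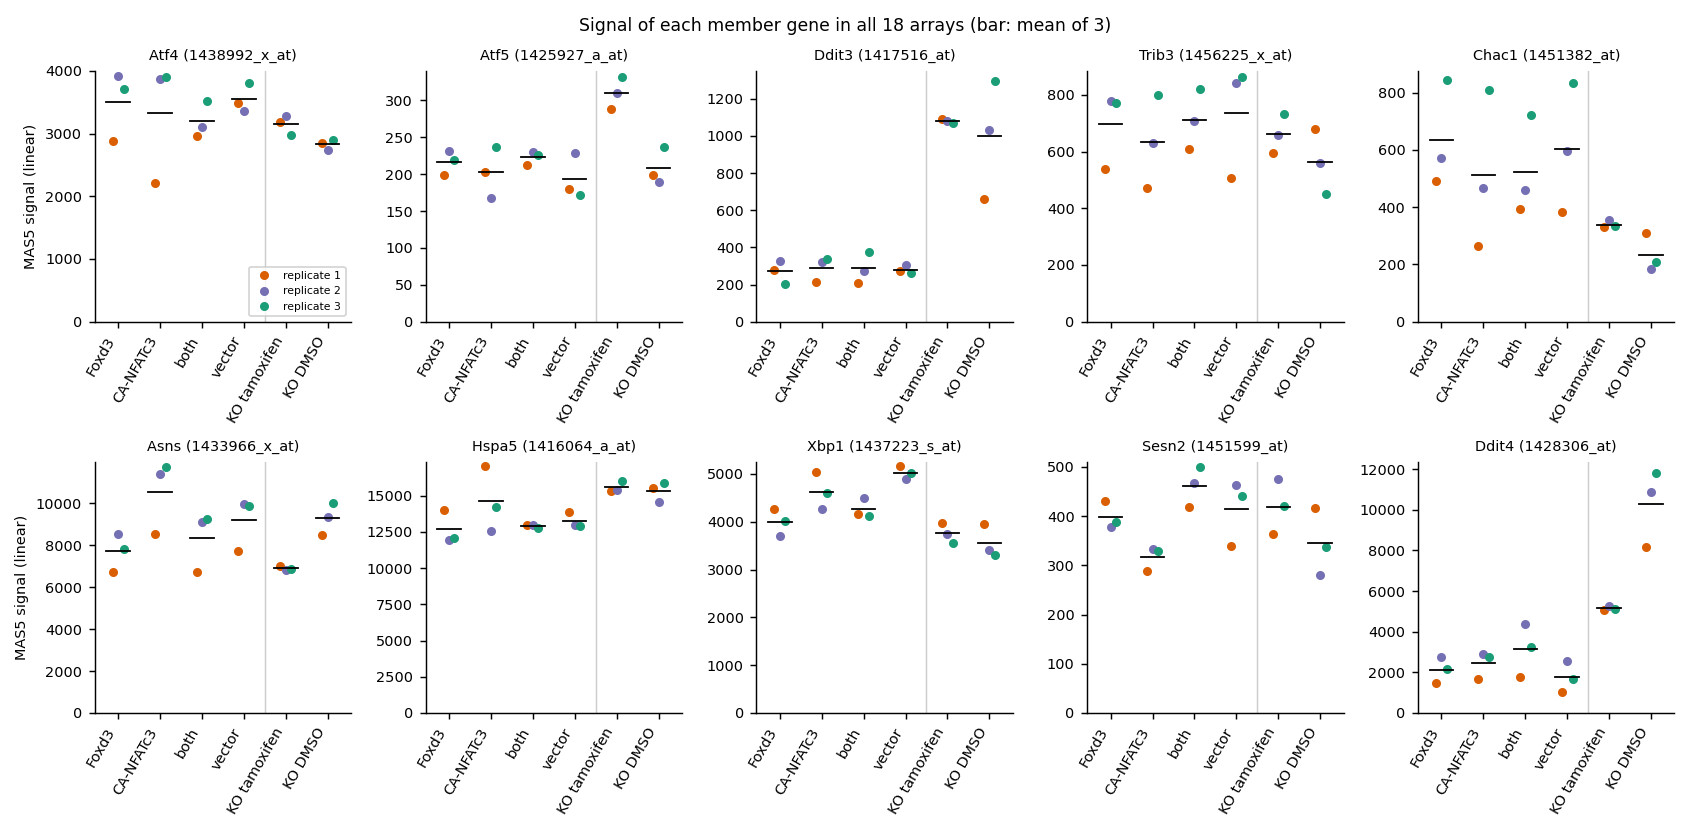
Signal (linear scale) of each of the 10 genes by its probe set of highest mean, with 1 point per array coloured by replicate number and a bar at the mean of 3; "both" is Foxd3 with CA-NFATc3 and "KO" the conditional knockout cells. The Ddit4 points with tamoxifen (5071 to 5247) and with DMSO (8158 to 11820) sit apart from each other and above all points of the transfected cells.

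Among the plasmids set against the vector, the change that passed the test was a lower Xbp1, the transcription factor of the IRE1 arm, in the cells labelled Foxd3: 3 of its 4 probe sets fell, and no probe set of the other 9 genes was called. Of the 19 probe sets tested, 3 were called for Foxd3 against vector, where 1.71% of all probe sets were called, and all 3 were lower, where 0.534% of all were called lower. The median log2 difference was -0.06 over the 19 probe sets and -0.01 over all tested. For the Xbp1 probe set 1420886_a_at the Foxd3 arrays had 1676, 1662 and 1495, against 2301, 2172 and 2245 in the vector arrays. The groups did not overlap, with a log2 difference of -0.47 ± 0.08 (SE, n = 3 arrays a group, limma adjusted p = 0.00658). Probe set 1437223_s_at had 4273, 3701 and 4011 in the Foxd3 arrays, against 5159, 4899 and 5011 in the vector arrays. Its log2 difference was -0.33 ± 0.07 (limma adjusted p = 0.0324), again with no overlap. Probe set 1420011_s_at, at 808, 824 and 749 with Foxd3 against 1279, 962 and 1017 with the vector, fell by 0.43 on the log2 scale (limma adjusted p = 0.0430), and the dimmer 1420012_at had a difference of -0.34 with an adjusted p of 0.504. These calls rest on few arrays. In 12 fits that each left out 1 array, 1420886_a_at was lost without Foxd3 replicate 3 alone (limma adjusted p = 0.0523). 1437223_s_at was lost without Foxd3 replicate 2 or 3 and without vector replicate 1, 2 or 3, at 0.0783 to 0.136. 1420011_s_at was lost in all but the fits without vector replicate 2 or CA-NFATc3 replicate 1, at 0.0512 to 0.200.

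The means of the same 3 Xbp1 probe sets stood in between with CA-NFATc3 and with both plasmids, comparisons that share the vector arrays. 1420886_a_at had 2174, 1755 and 1873 with CA-NFATc3 and 1806, 1750 and 1798 with both plasmids. Its log2 difference against vector was -0.21 ± 0.08 for CA-NFATc3 (limma adjusted p = 0.245) and -0.32 ± 0.08 for both plasmids (limma adjusted p = 0.0502). Neither was called, but the difference for both plasmids was called without CA-NFATc3 replicate 1 or 2 (adjusted p = 0.0225 and 0.0375). For CA-NFATc3 against vector 0 of the 19 probe sets were called by limma, where 3.57% of all were. An unadjusted p under 0.05 was reached by 3 of the 19, and by 3106 of all 23595 probe sets tested. For both plasmids against vector 0 of 19 were called by limma, where 2.84% of all were. There 5 of the 19 had an unadjusted p under 0.05, as had 3437 of all 23595.

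Hspa5, whose product BiP is the main ER chaperone and holds the sensors inactive, was called in none of these comparisons. Its probe set 1416064_a_at had 13998, 11956 and 12048 with Foxd3, 17073, 12534 and 14232 with CA-NFATc3 and 12990, 12945 and 12754 with both plasmids, against 13894, 12943 and 12930 with the vector. The highest array, CA-NFATc3 replicate 1, lay apart from the other 11. The 95% interval of the log2 difference from vector was -0.26 to 0.12 for Foxd3 and -0.06 to 0.32 for CA-NFATc3. The probe sets of Hspa5 did not share a direction. Probe set 1447824_x_at had 1121, 1211 and 1208 with Foxd3 and 1269, 1114 and 1191 with both plasmids. It had 1105, 1037 and 1008 with CA-NFATc3, against 1061, 996 and 1046 with the vector. Probe set 1427464_s_at averaged 5163 with Foxd3, 6091 with CA-NFATc3 and 5137 with both plasmids, against 5382 with the vector.

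**Figure D2:**
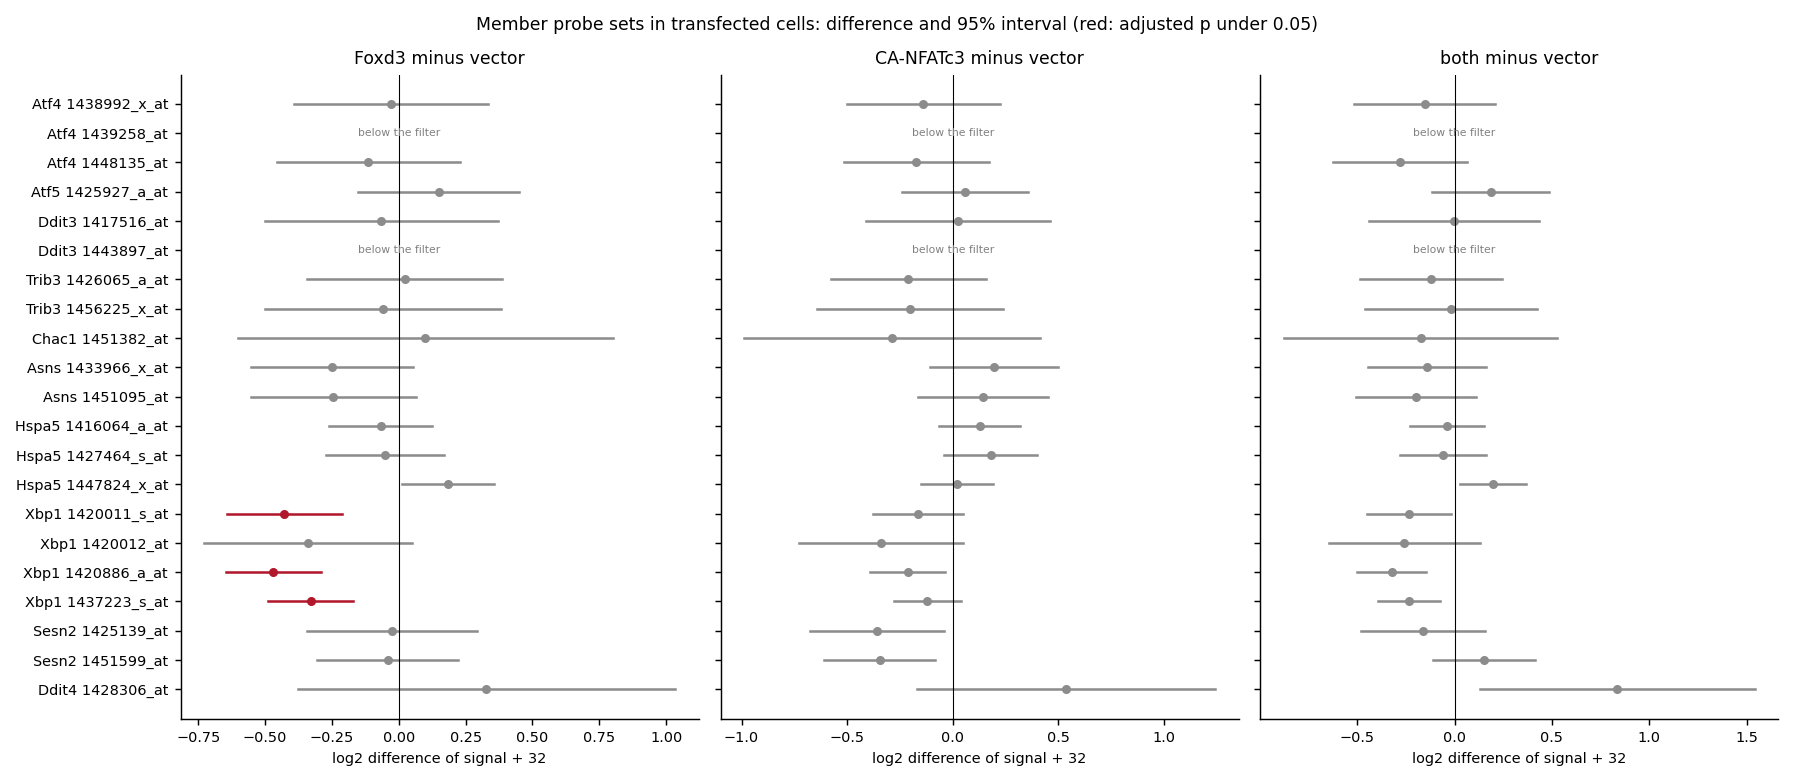
Log2 difference from vector (horizontal axis) with its 95% interval for each of the 21 probe sets, in 3 panels for Foxd3, CA-NFATc3 and both plasmids; red marks an adjusted p under 0.05 and "below the filter" a probe set that was not tested. The 3 red points are Xbp1 probe sets in the Foxd3 panel, and the widest intervals are those of Chac1 and Ddit4.

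The transcription factors of the ATF4 arm differed little between the transfected groups. Atf4 (1438992_x_at) averaged 3506 ± 547 with Foxd3, 3325 ± 971 with CA-NFATc3 and 3193 ± 296 with both plasmids, against 3552 ± 224 with the vector (SD, n = 3 each). Atf5, a relative of Atf4 that is also translated under eIF2 phosphorylation, averaged 216 ± 16.5, 203 ± 34.4 and 223 ± 8.78 in those groups, against 193 ± 30.7 with the vector. Ddit3 (1417516_at), the gene of the pro-apoptotic factor CHOP, averaged 270 ± 64.1, 291 ± 68.8 and 286 ± 85.1, against 280 ± 21.7. In the order of means, neighbouring transfected groups overlapped for each of these probe sets.

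Among the targets, Sesn2 was the 1 probe set of 19 called when Foxd3 was added to CA-NFATc3, where 3.92% of all probe sets were called and 1.67% called higher. Sesn2 encodes sestrin 2, which restrains mTORC1 when leucine is short. Its probe set 1451599_at had 418, 468 and 499 with both plasmids, against 289, 333 and 330 with CA-NFATc3 alone. The groups did not overlap, and the log2 difference was 0.50 ± 0.12 (limma adjusted p = 0.0318). The vector arrays, at 340, 462 and 441, also lay above those of CA-NFATc3 alone, which differed from them by -0.35 (adjusted p = 0.187). The call was lost in 5 of the 12 fits that left out 1 array: without CA-NFATc3 replicate 1, 2 or 3 (adjusted p = 0.125, 0.0578 and 0.0855) and without replicate 2 or 3 of both plasmids (0.0984 and 0.136). The other Sesn2 probe set, 1425139_at, had 175, 246 and 252 with both plasmids against 170, 229 and 175 with CA-NFATc3, and its difference of 0.20 had an adjusted p of 0.645. For both plasmids against Foxd3 0 of 19 were called by limma, where 0.225% of all were. There 0 of the 19 had an unadjusted p under 0.05, against 1408 of all 23595. The interaction of the 2 plasmids was called by limma for 0 of 19, where 0.424% of all were. Its unadjusted p was under 0.05 for 1702 of all 23595 probe sets and for 3 of the 19. Those 3 were Xbp1 1420886_a_at (0.36 ± 0.12, limma adjusted p = 0.348), Xbp1 1420011_s_at (0.36 ± 0.14, adjusted p = 0.563) and Sesn2 1451599_at (0.54 ± 0.17, adjusted p = 0.334).

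Ddit4 varied within each group of transfected cells. It had 1473, 2764 and 2144 with Foxd3, 1690, 2924 and 2747 with CA-NFATc3 and 1792, 4366 and 3255 with both plasmids, against 1013, 2560 and 1679 with the vector. All groups overlapped with the vector. The log2 difference of both plasmids against vector was 0.84 ± 0.33 (limma adjusted p = 0.241). Within each replicate number, however, the vector array was the lowest of the 4 groups. With a block for the replicate number the difference of both plasmids was called (limma adjusted p = 0.000156). Whether the numbers pair the samples is unsettled. Asns, the enzyme that makes asparagine, had 6742, 8549 and 7821 with Foxd3, 8536, 11402 and 11726 with CA-NFATc3 and 6710, 9099 and 9272 with both plasmids, against 7706, 9982 and 9867 with the vector (1433966_x_at). In each of these 4 groups the array numbered 1 was the lowest for both genes.

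That pattern was looked for in all members after the values were known. Replicate 1 was the lowest array in all 4 transfected groups for 6 of the 19 probe sets, where it was so for 5.43% of all probe sets tested: Atf4 1448135_at, Trib3 1456225_x_at, Chac1, Asns 1433966_x_at and 1451095_at, and Ddit4. Trib3, a pseudokinase that feeds back on ATF4, had 540, 470 and 610 in the replicate 1 arrays of Foxd3, CA-NFATc3 and both plasmids, against 507 with the vector, and 631 to 865 in the other 8 arrays (1456225_x_at). Chac1, which degrades glutathione and is induced late in the response, had 490, 265 and 392 in those replicate 1 arrays, against 382 with the vector, and 458 to 844 in the other 8. No probe set of Hspa5, Xbp1 or Sesn2 was among the 6. In knockout cells replicate 1 was the lowest in both groups for 1 of 20, Ddit4, where 15.1% of all probe sets showed that. The labels do not say what samples of the same number share. With all replicate 1 arrays left out, the counts of called probe sets were 3 for Foxd3 against vector, 0 for CA-NFATc3 and 0 for both plasmids against vector, and 2 for both plasmids against CA-NFATc3. Over all probe sets the counts in that order were 289, 660, 385 and 478, in place of 403, 842, 669 and 926. The 2 called for both plasmids against CA-NFATc3 were the probe sets of Asns (limma adjusted p = 0.0140 and 0.0235), while Sesn2 had 0.0633. For Foxd3 against vector the 3 then included Asns 1433966_x_at (adjusted p = 0.0469) in place of Xbp1 1420011_s_at (0.190).

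The probe sets most like Trib3 1456225_x_at over the 12 transfected arrays were those of Vldlr (Pearson r = 0.973), Nars (0.941), Aldh18a1 (0.937), Aars (0.937) and Jdp2 (0.929), and those most like Hspa5 1416064_a_at were Wdr36 (0.949), Gfer (0.934), Pafah1b1 (0.907), Ube2k (0.901) and Dna2 (0.899). These 12 points share the replicate numbers and the scaling of each array, and the r is given as a description.

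After 2 days of tamoxifen Ddit4 and Asns were lower, and Atf5 was higher, than with DMSO. Of the 20 probe sets tested, 6 were called, where 28.3% of all probe sets were: 3 higher (14.4% of all) and 3 lower (13.9% of all). The share among these genes is therefore near that of all probe sets. Their median log2 difference was 0.06, and that of all probe sets tested was -0.01. The fibroblast marker signal moved with the same contrast, as did the ratio of the actin 3′ and 5′ control probe sets. That ratio was 1.89 to 1.90 with tamoxifen against 2.06 to 2.24 with DMSO. The same ratio for Gapdh overlapped, at 0.999 to 1.03 with tamoxifen against 0.978 to 1.04 with DMSO. The part of the marker signal and of these ratios in the results was not tested.

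Ddit4 had 5071, 5247 and 5133 with tamoxifen, against 8158, 10901 and 11820 with DMSO. The groups were far apart and the tamoxifen arrays close together. Its log2 difference was -0.98 ± 0.10 (limma adjusted p = 3.8e-05), and it was called in each of the 6 fits that left out 1 array. Asns fell at both probe sets: 1433966_x_at had 7023, 6836 and 6858 with tamoxifen, against 8483, 9337 and 10040 with DMSO. That difference was -0.42 ± 0.06 (limma adjusted p = 0.000294). Probe set 1451095_at differed by -0.36 ± 0.06 (limma adjusted p = 0.000841), and both were called in each of the 6 fits that left out 1 array. With all 18 arrays in 1 fit, 1451095_at was not called (adjusted p = 0.0544).

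Atf5 had 289, 310 and 332 with tamoxifen, against 198, 189 and 236 with DMSO, with no overlap. Its log2 difference was 0.52 ± 0.12 (limma adjusted p = 0.00852), called in each of the 6 fits that left out 1 array, at an adjusted p of 0.00658 to 0.0436. Trib3 1426065_a_at rose to 362, 332 and 337 with tamoxifen, against 281, 242 and 257 with DMSO, a log2 difference of 0.36 ± 0.11 (limma adjusted p = 0.0270). Its other probe set, 1456225_x_at, had 595, 657 and 732 with tamoxifen against 680, 560 and 450 with DMSO, which overlap (adjusted p = 0.224). Chac1 had 330, 354 and 334 with tamoxifen, against 309, 183 and 208 with DMSO, a log2 difference of 0.51 ± 0.16 (limma adjusted p = 0.0317). The Chac1 and Trib3 calls were each lost in 5 of the 6 fits that left out 1 array, all but the one without DMSO replicate 1, at adjusted p of 0.0724 to 0.122 for Chac1 and 0.0589 to 0.0948 for Trib3. They were also lost after quantile normalization (0.0638 and 0.0606) and with all 18 arrays in 1 fit (0.259 and 0.104).

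DMSO replicate 1 decided several values. Without it 10 of the 20 probe sets were called in place of 6, with both Sesn2 probe sets, Xbp1 1420886_a_at and Trib3 1456225_x_at added as higher (limma adjusted p = 0.0179, 0.0437, 0.00791 and 0.0349). Over all probe sets 7337 were then called in place of 6932. With all arrays, Sesn2 1425139_at had 356, 426 and 329 with tamoxifen, against 349, 239 and 268 with DMSO, and an adjusted p of 0.0940. Ddit3 (1417516_at) had 1090, 1080 and 1069 with tamoxifen, against 663, 1035 and 1297 with DMSO, so that the DMSO arrays spanned the tamoxifen ones. Its log2 difference was 0.16 ± 0.18 (limma adjusted p = 0.544).

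The ER arm was not called at any probe set. Hspa5 1416064_a_at had 15316, 15416 and 16014 with tamoxifen, against 15545, 14588 and 15862 with DMSO, with a 95% interval of the log2 difference of -0.07 to 0.12. Xbp1 1437223_s_at had 3974, 3744 and 3564 with tamoxifen, against 3961, 3406 and 3303 with DMSO, with an interval of -0.08 to 0.24. Atf4 1438992_x_at had 3183, 3287 and 2976 with tamoxifen against 2854, 2733 and 2901 with DMSO, which did not overlap, and an adjusted p of 0.0783.

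**Figure D3:**
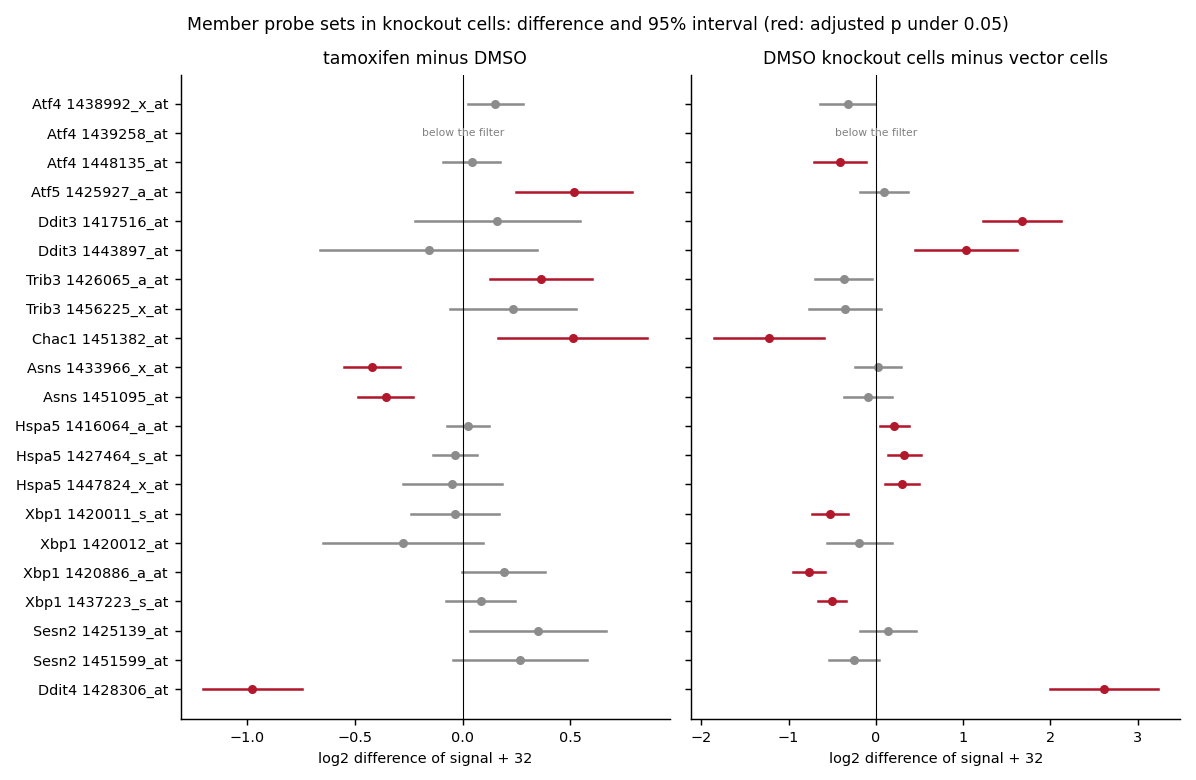
Log2 difference (horizontal axis) with its 95% interval for each of the 21 probe sets, tamoxifen minus DMSO on the left and DMSO-treated knockout cells minus vector-transfected cells on the right; red marks an adjusted p under 0.05. On the left Ddit4 stands lowest at -0.98 and both Asns probe sets lie below 0, while on the right Ddit4 stands highest at 2.61.

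The DMSO-treated knockout cells were also set against the vector cells. The labels give both the same line of origin. The floxed genotype with its Cre, the lipofection, the DMSO and any difference of line or batch cannot be told apart in this comparison. The fibroblast marker sum was 2700 to 3132 with DMSO against 424 to 528 with the vector. The actin ratio was 2.06 to 2.24 against 2.28 to 2.35, and the Gapdh ratio 0.978 to 1.04 against 0.881 to 0.959. Their part in the results of this comparison was not tested. Of 20 probe sets tested, 11 were called, where 48.4% of all were, 6 higher (29.8% of all) and 5 lower (18.6% of all), so that the share was near that of all probe sets. All probe sets had a median log2 difference of 0.13 as deposited and -0.01 after quantile normalization, and the share of calls that were higher was 61.6% as deposited and 47.7% after it. Differences below are as deposited and are to be read against that median.

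Ddit4 and Ddit3 were higher in the knockout cells. Ddit4 had 8158, 10901 and 11820 in the DMSO arrays, against 1013, 2560 and 1679 in the vector arrays, a log2 difference of 2.61 ± 0.30 (limma adjusted p = 4.5e-07). Tamoxifen-treated cells, at 5071 to 5247, lay between. Ddit3 1417516_at had 663, 1035 and 1297, against 273, 305 and 263 in the vector arrays, a log2 difference of 1.68 ± 0.21 (limma adjusted p = 1.9e-06), and its dimmer probe set 1443897_at was at least 1.59-fold higher. All 12 transfected arrays were below the filter for 1443897_at, which passed through the knockout arrays alone, so that its place among the 6 higher ones is no support. The 3 Hspa5 probe sets differed by 0.21 to 0.32 and were called both as deposited and after quantile normalization, where they differed by 0.27 to 0.45. The call of 1416064_a_at (adjusted p = 0.0367) was lost without vector replicate 2 or 3 or DMSO replicate 1 or 3 (0.0848 to 0.115), and that of 1447824_x_at without DMSO replicate 3 (0.122).

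Chac1 and Xbp1 were lower in the knockout cells. Chac1 had 309, 183 and 208 in the DMSO arrays, against 382, 596 and 834 in the vector arrays, a log2 difference of -1.22 ± 0.30 (limma adjusted p = 0.00231). Xbp1 1420886_a_at had 1500, 1236 and 1196, against 2301, 2172 and 2245, and its log2 difference of -0.76 ± 0.09 (limma adjusted p = 4.4e-07) was -0.76 after quantile normalization as well. Probe sets 1420011_s_at and 1437223_s_at fell by 0.53 and 0.50. Atf4 1448135_at differed by -0.41 ± 0.14 (limma adjusted p = 0.0227), but not after quantile normalization (0.0586) or without vector replicate 3 (0.170) or DMSO replicate 2 or 3 (0.0680 and 0.0661). After quantile normalization Trib3 1426065_a_at, Xbp1 1420012_at and Sesn2 1451599_at were also called lower (adjusted p = 0.00252, 0.0237 and 0.0117). Asns did not pass, with log2 differences of 0.02 and -0.09.

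Other genes of the same pathways were counted over 10 lists, with 1 probe set per gene, the one of highest mean. The lists were chosen with earlier results of these data known, so that their counts are a description and no independent support. In transfected cells the shares of all genes called were 2.26% for Foxd3, 4.99% for CA-NFATc3 and 3.92% for both plasmids against vector, 5.34% for both against CA-NFATc3, 0.301% for both against Foxd3 and 0.663% for the interaction. None of the 13 aminoacyl-tRNA synthetase and tRNA export genes or of the 16 genes for eIF2 kinases, phosphatase subunits and eIF2B was called by limma in any of these 6 comparisons, and 0 to 2 genes of the first list and 0 to 1 of the second had an unadjusted p under 0.05. Of 27 ATF4 and CHOP targets tested, Slc38a2, an amino acid transporter, was higher with both plasmids than with the vector (log2 difference 0.24, adjusted p = 0.0408) and than with CA-NFATc3 (0.25, adjusted p = 0.0222), and Nupr1, a small stress-induced chromatin protein, averaged 523 with both plasmids against 1381 with CA-NFATc3 (-1.36, adjusted p = 0.0130). In the fits that left out 1 array, 0 to 1 targets were called in each direction in both of these comparisons. Creb3l2, a membrane-bound factor related to ATF6, was at least 2.53-fold higher with CA-NFATc3 than with the vector (limma adjusted p = 0.00169). Its mean with the vector (60.7) was below the filter, against 166 with CA-NFATc3, so that this call is no support. Selenos, which takes part in the removal of misfolded ER proteins, averaged 3548 with CA-NFATc3 against 2638 with the vector (0.42, adjusted p = 0.00646), and 0 to 2 genes of its list were called in the fits that left out 1 array. Of 9 cytosolic heat shock genes, 1 was higher with Foxd3, 2 with CA-NFATc3 and 2 with both plasmids than with the vector, and 2 were lower with both plasmids than with CA-NFATc3. Hspa1a, an inducible HSP70 gene, averaged 415 with Foxd3 and 431 with both plasmids, against 181 with the vector (1.06 and 1.11, adjusted p = 0.0117 and 0.00625). Its call for Foxd3 was the 1 of that comparison, where the count became 0 without Foxd3 replicate 3 or vector replicate 3 and 2 without vector replicate 1. Hspa1b, its neighbour and near-copy, averaged 2405 with both plasmids and 2259 with CA-NFATc3, against 1417 with the vector (0.77 and 0.68), and probes may not tell these genes apart. Hspb1, a small heat shock protein gene, averaged 9349 with both plasmids against 11936 with CA-NFATc3 (-0.35, adjusted p = 0.0147), where 1 gene fell in place of 2 without CA-NFATc3 replicate 1 or 3 or replicate 2 of both plasmids. Hspa4l, of the HSP110 family, averaged 806 with CA-NFATc3 against 213 with the vector, and 223 with both plasmids against 806 with CA-NFATc3; its interaction term was -1.55 ± 0.22 (limma adjusted p = 0.00260).

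With tamoxifen, 16.7% of all genes were called higher and 16.0% lower. HIF targets were lower: 11 of 14 fell and 1 rose, with a median log2 difference of -0.45. Ankrd37 averaged 385 with tamoxifen against 859 with DMSO (-1.10 ± 0.11, limma adjusted p = 1.5e-05), Egln3, the prolyl hydroxylase PHD3, 693 against 1321 (-0.90) and Pfkfb3, a regulator of glycolysis, 271 against 508 (-0.79). The gene that rose was P4ha2 (0.58), named after its value was seen. Between 9 and 11 of the 14 fell in the 6 fits that left out 1 array. Of 28 ATF4 and CHOP targets, 8 rose and 9 fell. Those that rose included Cebpb, the gene of the transcription factor C/EBP beta (2312 against 952, log2 difference 1.25), and Nupr1 (810 against 416, 0.92). Ddr2, a collagen receptor, was at least 2.89-fold higher, but its mean with DMSO (55.4) was below the filter, which it passed through the tamoxifen arrays, so that its place among the 8 is no support. Among those that fell were the 3 enzymes of serine synthesis in the list, Phgdh (-0.36), Psat1 (-0.44) and Psph (-0.63), picked out after their values were seen. Of the 13 aminoacyl-tRNA synthetase and tRNA export genes 0 rose and 6 fell, led by the tRNA exporter Xpot (-0.33), Lars (-0.28) and Iars (-0.25). In the 6 fits that left out 1 array 3 to 5 fell (3 without DMSO replicate 2), and 1 rose without DMSO replicate 1. The number that fell was 4 after quantile normalization and with all 18 arrays in 1 fit, and 7 with the stricter filter.

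Of 16 genes of eIF2 regulation 4 rose and 1 fell, and those that rose included Eif2ak2, the RNA-activated kinase PKR, at 1373 with tamoxifen against 588 with DMSO (1.18), Impact, an inhibitor of the kinase GCN2 (0.50), and Ppp1r15a, the phosphatase subunit GADD34 (0.39). The number that rose was 2 without tamoxifen replicate 3 and 6 without DMSO replicate 1. Of 13 UPR sensors and factors 4 rose and 0 fell, Creb3l2 (0.77), Creb3 (0.46), Cebpb (1.25) and, outside the naming rule, Atf6 (0.44). Of 33 ER chaperone, folding and degradation genes 12 rose and 5 fell, led by Selenos (0.65), the collagen-folding enzyme Fkbp14 (0.58) and Derl2, a channel component for misfolded proteins (0.58); in the fits without 1 array 10 to 13 rose and 2 to 5 fell, the number that fell being 2 without DMSO replicate 2 or tamoxifen replicate 3 and 3 without DMSO replicate 3 or tamoxifen replicate 1 or 2. Of 11 sestrin and mTORC1 genes 2 rose and 2 fell, with 1 that rose without DMSO replicate 1 or tamoxifen replicate 1 or 2. Of 9 mitochondrial chaperones and proteases 1 fell, and none fell without DMSO replicate 1 or 2 or tamoxifen replicate 1 or 2; 2 rose without DMSO replicate 1. Of 9 heat shock genes 2 rose and 2 fell, but 0 rose without DMSO replicate 2 or tamoxifen replicate 3, 1 without tamoxifen replicate 1 or 2 and 4 without DMSO replicate 1, and 1 fell without DMSO replicate 2 or 3 or tamoxifen replicate 1 or 3. Of 14 p53 targets 5 rose and 2 fell. With all 18 arrays in 1 fit 5 rose and 6 fell among the ATF4 and CHOP targets, 2 and 0 among the genes of eIF2 regulation, and 10 and 1 among the ER chaperone, folding and degradation genes. Cebpb, Nars, Sesn1, Ppp1r15a and Eif2ak3 each stand in 2 lists. Fibroblast marker signal, given above, was higher in the same arrays, and its part in these counts was not tested.

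**Figure D4:**
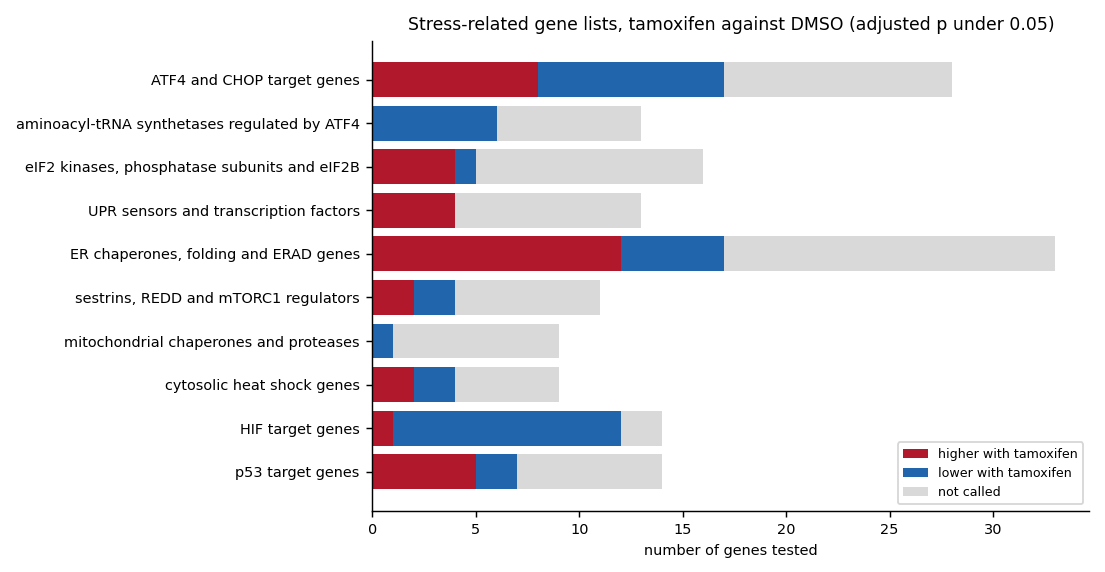
Number of genes tested in each of the 10 lists (horizontal axis), split into genes called higher with tamoxifen (red), called lower (blue) and not called (grey). The HIF list is mostly blue, with 11 of 14 lower, and the ER chaperone list holds 12 red genes of 33.

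In the DMSO-treated knockout cells against the vector cells, where 32.2% of all genes were called higher and 21.6% lower, 10 of the 14 HIF targets were higher and 1 lower (11 and 1 after quantile normalization), and 12 of the 14 p53 targets were higher and 0 lower under both. The HIF targets' median log2 difference was 0.56 and that of the p53 targets 0.70. P4ha1, a collagen prolyl hydroxylase, averaged 1136 in the DMSO arrays against 351 in the vector arrays (1.61), and Cdkn1a, the cell cycle inhibitor p21, 2134 against 716 (1.57). Of 28 ATF4 and CHOP targets 7 were higher and 6 lower (5 to 8 and 3 to 8 in the 18 fits that left out 1 array), and of 33 ER chaperone, folding and degradation genes 10 were higher and 10 lower.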

How the data were processed

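Total RNA of 18 samples was labelled with biotin and hybridised to Affymetrix mouse arrays, 1 sample per array. What the authors deposited is 1 linear intensity per probe set and array. Per the submitters' processing notes it comes from MAS5, whose version is not named. Each array's mean, trimmed by 2% at either end, was 500.0, so that arrays share 1 scale; background handling and detection calls are unknown here. The table lists 45101 probe sets, with 64 controls among them. GEO's platform annotation pairs 34945 with 1 gene symbol, 932 with several and 9160 with none; 34741 gene numbers matched the RefSeq gene table of GRCm38.p6. All 18 columns were matched to a sample, and no pair of arrays shared more than 0.00443% of values.

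The deposited signals were tested as log2(signal + 32). Every probe set that was not a control was tested if 3 or more of the fitted arrays had a signal of 65.8 or above, by a linear model on group means without covariates in limma 3.58.1 under R 4.3.3, with a moderated two-sided test (eBayes, trend), adjusted by Benjamini-Hochberg and called under 0.05. The 12 transfected and the 6 knockout arrays were fitted apart, and DMSO-treated knockout cells were compared with vector cells in a fit of all 18 arrays. "At least" folds hold each array of the dim group at the filter, or at its own signal where that is above it. The number of arrays limits the precision. The 6 pluripotency and 8 fibroblast markers and the 10 lists (ATF4 and CHOP targets, aminoacyl-tRNA synthetases, eIF2 regulation, UPR sensors, ER chaperones and degradation, sestrins and mTORC1, mitochondrial chaperones, heat shock, HIF and p53 targets) were written by hand. The members and lists were chosen with earlier results of these data known. Named genes were all member probe sets, up to 3 called genes per list and comparison by size of difference, and the 5 probe sets most like Trib3 and Hspa5; exceptions are marked. Alternatives were no offset or 64, no filter or 132, quantile normalization, 1 probe set per gene, other arrays in the fit, a replicate block, array weights and leaving out 1 array; leaving out all replicate 1 arrays was added after seeing the data. Code was tested on simulated data. Promoters came from RefSeq (GRCm38.p6), with no other sequence used here; figures were drawn with matplotlib 3.10.9 in Python 3.11.15.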

Additional observations from a re-analysis of the deposited data

How the results depend on the processing

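No difference called under either setting changed sign under any alternative. Of 3405 recomputed differences of single probe sets, 3295 kept their side of the threshold, 55 lost a call and 55 gained one; where one changed, the cause was not tested. The counts of called probe sets ranged over the fits without 1 array from 0 to 3 for Foxd3 against vector, 0 to 1 for both plasmids against vector and against CA-NFATc3, 4 to 10 for tamoxifen against DMSO and 8 to 13 for DMSO-treated knockout cells against vector; they were 0 throughout for CA-NFATc3 against vector, both plasmids against Foxd3 and the interaction. For Foxd3 against vector the count of 3 became 1 with no filter. With 1 probe set per gene it was 1 of 10, and since all 3 calls were of Xbp1, no more than 1 of them could stand there. For both plasmids against vector the count of 0 became 1 (Xbp1 1420886_a_at) with an offset of 64, with the stricter filter, with all 18 arrays, with only the groups compared and with array weights. For both plasmids against CA-NFATc3 the count of 1 became 0 with no filter (Sesn2, adjusted p = 0.0539) and 2 without all replicate 1 arrays. For tamoxifen the count of 6 became 3 with all 18 arrays in the fit, where Asns 1451095_at had a limma adjusted p of 0.0544. For knockout against vector cells 11 of 20 became 5 of 10 with 1 probe set per gene, where fewer were tested. In the same comparison Trib3 1426065_a_at (adjusted p = 0.0548) was called without Foxd3 replicate 1 or 3, CA-NFATc3 replicate 1 or replicate 3 of both plasmids (0.0248 to 0.0486), Trib3 1456225_x_at without vector replicate 1 (0.0182), Sesn2 1451599_at without DMSO replicate 1 (0.0326) or vector replicate 1 (0.0382), and Atf4 1438992_x_at without CA-NFATc3 replicate 1 (0.00630).

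A block for the replicate number raised the calls over all probe sets as well as those of the members. The member count was 5 for Foxd3 against vector (both Asns probe sets added as lower, limma adjusted p = 0.0208 and 0.0195), where 966 of all were called against 403 without the block. It was 1 for CA-NFATc3 against vector (Ddit4, 0.54, 0.00360), where 1397 of all were called against 842. For both plasmids against vector it was 5 (Ddit4 higher, 0.84, 0.000156, with Atf4 1448135_at, Asns 1451095_at and 2 Xbp1 probe sets lower), where 1450 of all were called against 669. For both against CA-NFATc3 it was 3 (both Asns probe sets lower, 0.00193 and 0.00133), where 1619 were called against 926. For both against Foxd3 it was 1 (Ddit4, 0.0310), where 119 were called against 53. In the gene lists the block gave 2 higher and 4 lower ATF4 and CHOP targets for CA-NFATc3 against vector (0 and 0 without it), 1 lower aminoacyl-tRNA synthetase gene there and 2 for both plasmids against vector (0 and 0 without it), and 3 higher and 2 lower ATF4 and CHOP targets for both plasmids against CA-NFATc3 (1 and 1 without it). Whether the numbers pair the samples is unsettled. Deviations from the group mean of same-numbered transfected arrays had an r of 0.0716 to 0.263 over all probe sets tested (13 of 18 pairs over 0.1) and at 0.104 to 0.315 over 1 probe set per gene (18 of 18), against -0.245 to 0.0345 for different numbers over all probe sets, and each of the 12 arrays correlated best with its own number in the other groups, which is a hint from the data and not the design. In knockout cells r of same-numbered arrays was -0.0260 to 0.0272. Only signals were used here, so that signal over background is not known beyond the filter.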

Other observations

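The 6 probe sets whose replicate 1 array was the lowest in all 4 transfected groups were described further by the mean difference between replicate numbers over those groups. The pattern had been seen in the same values, so these differences are a description with no test. Replicates 2 and 3 stood above replicate 1 by 1.06 and 0.70 on the log2 scale for Ddit4, by 0.44 and 1.04 for Chac1, by 0.45 and 0.59 for Trib3 1456225_x_at and by 0.39 and 0.37 for Asns 1433966_x_at. For Hspa5 1416064_a_at the same differences were -0.19 and -0.15. In knockout cells they were 0.23 and 0.28 for Ddit4 and -0.29 and -0.25 for Chac1.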
